A study of Homo sapiens with 6 samples.

Results

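Replication-dependent histone genes encode the linker histone H1 and the core histones H2A, H2B, H3 and H4 that package newly copied DNA. They were taken as every gene whose current symbol places it in the H1-1 to H1-6, H2AC, H2BC, H3C or H4C series, without pseudogenes, which gave 69 genes of the 61552 identifiers counted. Of these, 6 encode H1, 17 H2A, 18 H2B, 13 H3 and 15 H4, and 55 lie on chromosome 6, 13 on chromosome 1 and 1 on chromosome 12. RNA came from MDA-MB-231, an established human triple-negative breast cancer cell line. Cells were exposed for 24 h to 10 μM VNLG-152R, which the study describes as an agent that leads to degradation of the kinases MNK1 and MNK2, or to DMSO as vehicle control, with 3 samples in each group. The study states that cells were treated in triplicates, and in general that plotted values come from independent experiments, without saying which holds for these samples, so the p-values speak only for the spread among these samples, possibly a technical one. In bulk samples fewer S-phase cells and less histone RNA per cell cannot be told apart.

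Most animal mRNAs end in a poly(A) tail, but replication-dependent histone mRNAs end in a short stem-loop instead. The stem-loop binding protein SLBP holds this hairpin, the U7 snRNP pairs with the RNA behind it, and an endonuclease cuts between them, so the mature mRNA carries no tail. The genes are transcribed in S phase from a few chromosomal clusters gathered in histone locus bodies, and their mRNAs are degraded quickly when DNA synthesis stops. The libraries were made from poly(A)-selected RNA. Counts of these genes therefore describe histone transcripts that survived such a selection, and not the whole histone mRNA pool.

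The hairpin is printed here because it is the element that sets these mRNAs apart from those that the library method selects. It was found in GENCODE 29 transcripts of 29 members, as a stretch of 16 bases with a perfectly paired stem, written as DNA. Capitals mark stem and loop and lower case the 5 bases on either side.
H2AC6: ccaaaGGCTCTTTTCAGAGCCcccct
H2AC13: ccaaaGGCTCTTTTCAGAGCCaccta
H2BC5: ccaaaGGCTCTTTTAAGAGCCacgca
H2BC21: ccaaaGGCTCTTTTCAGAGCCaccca
H3C10: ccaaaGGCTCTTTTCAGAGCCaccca
H4C8: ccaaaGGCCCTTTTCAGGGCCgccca
H4C16: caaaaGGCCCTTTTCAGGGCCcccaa
The left arm of the stem read GGCTCT in all 6 H2A, 11 H2B and 4 H3 genes with a match, and GGCCCT in all 8 H4 genes with a match. The loop was TTTC in 22 genes, TTTA in 4 and TTTT in 3. In 21 of the 29 an annotated transcript ran on for at least 100 bases behind the hairpin, for example 1128 bases in H2AC6, 1655 in H4C8, 1729 in H2BC21 and 1510 in H4C16. In the other 8 every annotated transcript with the hairpin stopped sooner, 39 bases behind it in H2BC5 and in H2AC13. The remaining 40 members showed no match, and many of their GENCODE 29 transcripts hold only the coding part.

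Vehicle control libraries held 60122936 to 68583224 gene counts and VNLG-152R libraries 69923839 to 82151816. The line's markers VIM, CD44 and AXL were at control means of 5080, 696 and 1150 CPM (gene counts scaled to a common library total), and ESR1 at 0.00489, PGR at 0.371, CDH1 at 0.585 and PTPRC at 0.0214 CPM. SPARC, listed as a marker, was nearly absent at 0.722 CPM, while COL1A1 at 17.2 CPM was above the low level set for it. CPM values are scaled by TMM, a library normalization, and changes are log2 fold changes of VNLG-152R over vehicle control from edgeR. A gene was called changed at a Benjamini-Hochberg adjusted p under 0.05 over the 17084 genes tested.

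Histone genes took a very small part of the counts. In the order of replicates 1 to 3, which is kept throughout, the 69 members together had 7261, 7755 and 10104 counts under vehicle and 7789, 8244 and 9839 under VNLG-152R. That is 0.0121%, 0.0127% and 0.0147% of all gene counts under vehicle and 0.0111%, 0.0111% and 0.012% under VNLG-152R. All treated shares lay below all control shares. In summed CPM the members reached 119.3, 128.7 and 148.3 in controls and 115.1, 107.8 and 118.8 with VNLG-152R, or 132 ± 14.8 against 114 ± 5.64 (SD, n = 3). The highest treated library was thus just under the lowest control, and the log2 ratio of the means was -0.21. Without control replicate 3, the library with the highest sum, the log2 ratio was -0.12.

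Of the 69 members, 32 passed the expression filter, 15 had 1 to 51 counts over all libraries, too few to test, and 22 were listed at 0 in every library. Of the 32 tested, 0 were called higher and 0 lower by edgeR's quasi-likelihood test, where 3.76% of all tested genes were called higher and 1.43% lower. The smallest adjusted p among them was 0.0752. DESeq2 also called 0 in either direction, but gave an adjusted p for only 20 of the 47 members it fitted, and none for H2AC13. At an unadjusted p under 0.05, 7 members (21.9%) were lower and 0 higher, against 9.76% and 12.8% of all tested genes. At that level DESeq2 gave 7 of 47 lower and 0 higher. The number lower in edgeR was 3 after a correction for transcript length, 5 with the replicate number as a block and 2 with both. The share of all genes at that level is given for the main fit only, so the counts from other fits cannot be set against one.

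The estimates lay mostly on one side of 0. Of the 32 tested members 28 (87.5%) had a negative log2 fold change, against 50.4% of all tested genes, and their median was -0.28 against 0.00 for all tested genes. In 6 members (18.8%) all treated libraries lay below all controls, against 13.4% of all tested genes. In 0 members did all treated libraries lie above, against 15.1%. The median depended on single libraries, at -0.15 with 21 of 32 negative without control replicate 3 and -0.43 with 29 of 32 negative without control replicate 1. The number lower at an unadjusted p under 0.05 fell to 2 when control replicate 3 was left out and to 4 when VNLG-152R replicate 3 was, and it was 12 when VNLG-152R replicate 1 was. No share of all genes at that level is given for these fits.

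**Figure D1:**
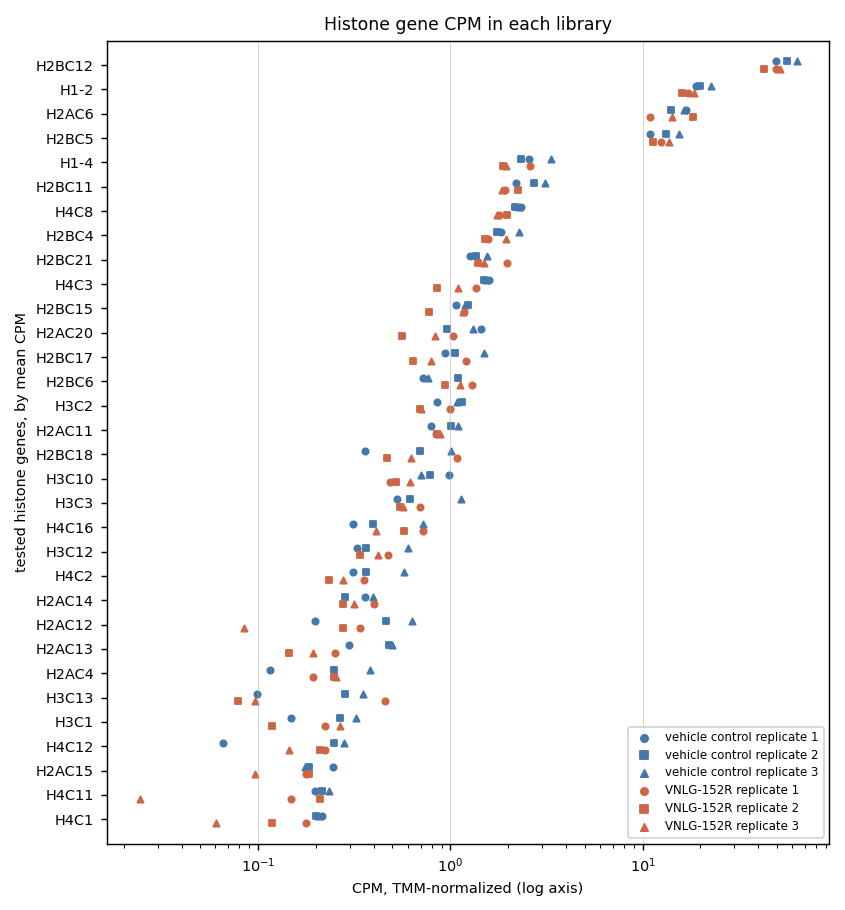
CPM of the 32 tested histone genes on a log axis, 1 row per gene ordered by mean, with 1 point per library (blue, vehicle control; orange, VNLG-152R; shape, replicate). H2BC12 stands at the top between 42.8 and 63.3 CPM and H4C1 at the bottom between 0.0604 and 0.214 CPM.

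A few genes carried nearly all of these counts. H2BC12, H1-2, H2AC6 and H2BC5, 4 members, held 80.7% of the 50992 member counts, whereas 43 members had under 100 counts over the 6 libraries. Per kilobase of exon in GENCODE 29 the highest mean levels were 137 CPM for H2BC12, 29.4 for H1-2, 14.8 for H2BC5, 9.09 for H2AC6 and 3.24 for H1-4. For H2BC12 and H1-2 the annotation holds 381 and 642 bp on 1 intronless transcript, so a longer transcript in the authors' annotation would lower these values per kilobase.

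H2BC12 encodes an H2B core histone and lies on the minus strand of chromosome 6, 27146418 to 27146798 (GRCh38), as a single exon. Its level was 49.6, 56.7 and 63.3 CPM in controls and 49.5, 42.8 and 51.7 CPM with VNLG-152R. Treated replicate 3 lay above control replicate 1, so the groups overlapped. The log2 fold change was -0.24 with an SE of 0.11 and an adjusted p of 0.21 in edgeR. Of the 100-base stretches of its transcript 71.6% occurred in no other GENCODE 29 gene, the rest being shared mostly with H2BFS, a near copy. Reads that fit both copies could therefore be missing from its counts as not unique.

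Both tested linker histones had lower treated means without passing the test. H1-2, the linker histone with most counts, is a single exon on the minus strand of chromosome 6, 26055787 to 26056428. It stood at 18.9, 19.8 and 22.7 CPM in controls and 17.2, 16.1 and 18.5 CPM with VNLG-152R. Every treated library lay below every control, at a log2 fold change of -0.25 (SE 0.1, adjusted p = 0.163 in edgeR). H1-4 was at 2.56, 2.32 and 3.35 CPM in controls and 2.6, 1.88 and 1.94 CPM with VNLG-152R, where treated replicate 1 overlapped the controls. Its log2 fold change was -0.36 (SE 0.19, adjusted p = 0.272 in edgeR). H1-6, the testis linker histone, had 14 counts in all and H1-1 had 1, while H1-3 and H1-5 were listed at 0. The summed CPM of the H1 class ran from 21.5 to 26.1 under vehicle and from 17.9 to 20.5 under VNLG-152R, without overlap.

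Among the H2A genes, all 8 that were tested had negative estimates. H2AC6, on the plus strand of chromosome 6 from 26124145 to 26139116 with spliced transcripts, gave 12.4% of member counts. It varied widely with VNLG-152R, at 11, 18.3 and 14.2 CPM beside 16.9, 14.1 and 16.5 CPM in controls, and its log2 fold change was -0.12 (SE 0.15). That estimate was 0.04 without VNLG-152R replicate 1. H2AC13 had the most negative estimate of the 32 tested members, its counts being 18, 29 and 34 under vehicle and 17, 11 and 16 under VNLG-152R. In CPM all treated values, 0.251, 0.144 and 0.193, were under the controls at 0.296, 0.481 and 0.499. Its log2 fold change was -1.12 (SE 0.34, unadjusted p = 0.00567, adjusted p = 0.0752 in edgeR), and it was called lower only where no expression filter was applied. H2AC13 shares sequence with H2AC14, and 42.3% of its 100-base stretches were its own. H2AC14 itself was at -0.09 (SE 0.29).

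H2AC12 and H2AC20 completed the more negative H2A estimates. H2AC12 had 12, 28 and 43 counts under vehicle and 23, 21 and 7 under VNLG-152R, which overlap, and a log2 fold change of -0.92 (SE 0.48). H2AC20, on chromosome 1, was at 1.45, 0.963 and 1.32 CPM in controls and 1.03, 0.562 and 0.833 CPM with VNLG-152R, at -0.62 (SE 0.25, adjusted p = 0.165 in edgeR). H2AC11 was at -0.17 (SE 0.21). The summed H2A level overlapped between groups, at 17.8 to 21.2 CPM in controls and 14.5 to 21 CPM with VNLG-152R.

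H2B genes gave 60.9% of member counts, and held 3 of the 4 positive estimates. H2BC5 stood at 10.9, 13.3 and 15.5 CPM in controls and 12.5, 11.3 and 13.8 CPM with VNLG-152R. All treated values fell inside the control range, at a log2 fold change of -0.08 (SE 0.13), which was 0.05 without control replicate 3. H2BC11 was at 2.2, 2.74 and 3.11 CPM in controls and 1.92, 2.25 and 1.85 CPM with VNLG-152R, at -0.42 (SE 0.17, adjusted p = 0.165 in edgeR). The most positive member was H2BC6, with 0.723, 1.1 and 0.763 CPM in controls and 1.29, 0.941 and 1.12 CPM with VNLG-152R, at 0.38 (SE 0.23, adjusted p = 0.354 in edgeR). H2BC21 was at 0.21 (SE 0.19), from 1.27, 1.36 and 1.56 CPM in controls to 1.98, 1.39 and 1.49 CPM with VNLG-152R. Groups overlapped for both.

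H3 and H4 genes were the least counted classes, with 2.56% and 3.95% of member counts. H3C10 was at 0.986, 0.78 and 0.704 CPM in controls and 0.488, 0.523 and 0.616 CPM with VNLG-152R, without overlap, at -0.59 (SE 0.23, adjusted p = 0.155 in edgeR). H3C2 was at -0.37 (SE 0.23) and H3C3 at -0.34 (SE 0.29), the latter at 0.08 without control replicate 3, and both overlapped. The summed H3 level was 2.99, 3.47 and 4.21 CPM in controls and 3.35, 2.31 and 2.67 CPM with VNLG-152R, with an overlap through treated replicate 1.

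For H4 the class sum separated the groups, at 5.16, 5.13 and 5.94 CPM in controls and 4.97, 4.24 and 3.95 CPM with VNLG-152R. H4C8, in which the hairpin is followed by a long annotated transcript, was at 2.32, 2.17 and 2.29 CPM in controls and 1.8, 1.97 and 1.76 CPM with VNLG-152R (-0.29, SE 0.15). H4C3 was at 1.59, 1.49 and 1.54 CPM in controls and 1.36, 0.85 and 1.1 CPM with VNLG-152R (-0.49, SE 0.2). H4C1 had 13, 12 and 14 counts under vehicle and 12, 9 and 5 under VNLG-152R (-0.82, SE 0.42). In all 3 genes every treated CPM lay below every control CPM, and the adjusted p values in edgeR were 0.276, 0.173 and 0.274. The other tested H4 genes overlapped: H4C2 at -0.54 (SE 0.32), H4C11 at -0.79 (SE 0.53), H4C12 at -0.07 (SE 0.46) and H4C16, the member on chromosome 12, at 0.24 (SE 0.33).

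**Figure D2:**
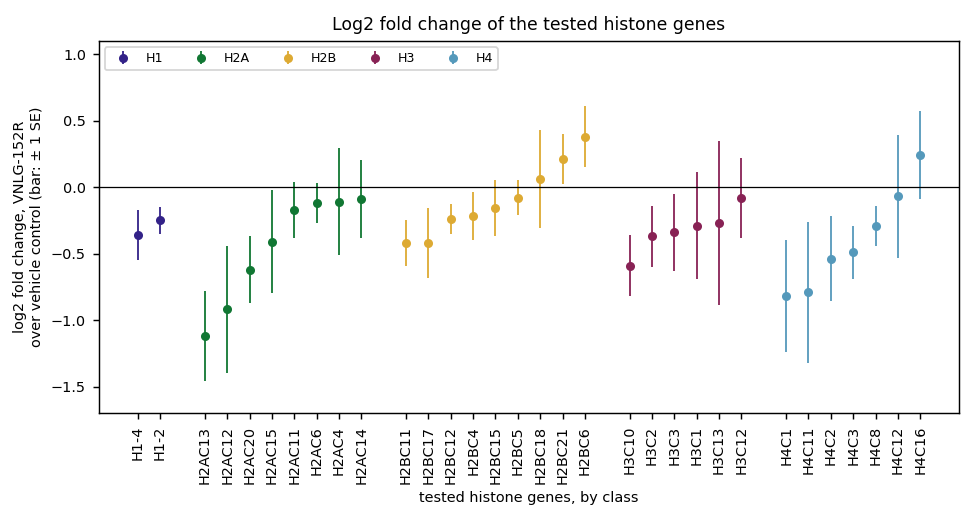
Log2 fold change of VNLG-152R over vehicle control for the 32 tested histone genes, grouped by class, with bars of 1 SE. All but 4 points lie below 0, from -1.12 for H2AC13 to 0.38 for H2BC6, and many bars reach 0.

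**Figure D3:**
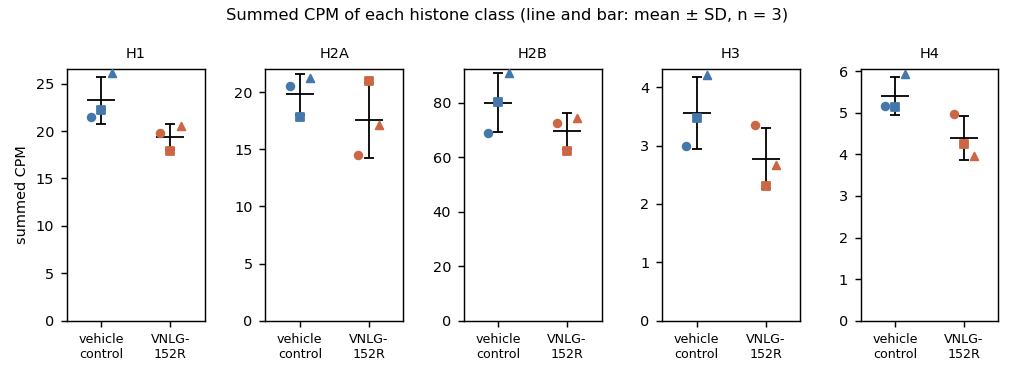
Summed CPM of each histone class in each library from a baseline of 0, with 1 panel per class and its own vertical scale (points, replicates 1 to 3 as circle, square and triangle; line and bar, mean ± SD, n = 3). H1 and H4 do not overlap between the groups, and H2A, H2B and H3 do.

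Class means in control and treated libraries were 23.2 ± 2.47 and 19.4 ± 1.34 CPM for H1, 19.9 ± 1.82 and 17.5 ± 3.29 for H2A, and 80 ± 10.8 and 69.8 ± 6.61 for H2B (SD, n = 3). For H3 they were 3.56 ± 0.615 and 2.78 ± 0.529 CPM and for H4 5.41 ± 0.461 and 4.38 ± 0.524 CPM. All 5 log2 ratios were negative, between -0.18 for H2A and -0.36 for H3. These are sums over members of unequal length and near copies, and no test was made of them.

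The members were next compared by the annotated end of their transcripts, which shows the hairpin in only 13 of the 32 tested members. Of the 9 tested members with a transcript running at least 100 bases past the hairpin, 4 had positive and 5 negative estimates, with a median of -0.12. The positive estimates were those of H2BC6, H4C16, H2BC21 and H2BC18, so all 4 positive members belong here. All 23 other tested members were negative, with a median of -0.36. But 19 of them have no hairpin match, so where their transcripts end relative to it is not known. In the other 4, the annotated transcripts with the hairpin stop within 100 bases. H2BC5, 1 of these 4, has a spliced transcript annotated, its gene running from 26158146 to 26171349. Among the 19, H2BC11 and H3C12 have spliced transcripts and H2AC11 has 2250 bp of exon. Long or spliced forms are thus annotated on both sides of the division. Without control replicate 3, 16 of the 23 were negative and 7, among them H2BC5 and H3C3, were positive. Sums were taken over all members, tested or not. The 48 without an extended transcript summed to 107 ± 14 CPM in controls and 90.1 ± 7.71 CPM with VNLG-152R. The 21 with extended transcripts summed to 25.6 ± 1.78 and 23.8 ± 2.59 CPM (SD, n = 3).

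Transcript length moved with nearly the same division, which differs only in H2BC4 and H2AC11. The 23 tested members with at most 1000 bp of exon were all negative with a median of -0.36, while 1660 other tested genes that short had a median of -0.04 with 54.1% negative. The 9 longer members had a median of -0.12 with 55.6% negative, and 15041 other long genes a median of 0.00 with 49.9% negative. After a correction for transcript length in each library, the medians were -0.06 for members with extended transcripts and -0.29 for the rest, and all 23 of the rest were below 0. With that correction and the replicate block, or with limma-voom, 21 of the 23 were. The part of transcript length in the division was not tested beyond that correction.

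The 22 members listed at 0 were not spread evenly. On chromosome 6, from 26188765 to 26273356, 15 members in a row, H4C4 to H2BC10, had 3 counts in all 6 libraries together, 1 in H3C6 and 2 in H3C8, and the other 13 were listed at 0. These include H1-3, the H2A genes H2AC7 and H2AC8, the H2B genes H2BC7, H2BC8, H2BC9 and H2BC10, the H3 genes H3C4 and H3C7, and H4C4, H4C5, H4C6 and H4C7. The stretch covers 84.6 kb, with 7 members on the plus and 8 on the minus strand. The 6 other annotated genes within it were listed at 0 as well. They are pseudogenes, except AL031777.3, which overlaps H3C4 and H2AC7. Histone pseudogenes outside the stretch were also at or near 0, such as H3P26 with 0 to 1 and H2AC5P with 0 to 4 counts per library. Its neighbours were counted in every library, with 44 to 93 counts for H2BC6 on the left and 122 to 156 for H4C8 on the right.

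**Figure D4:**
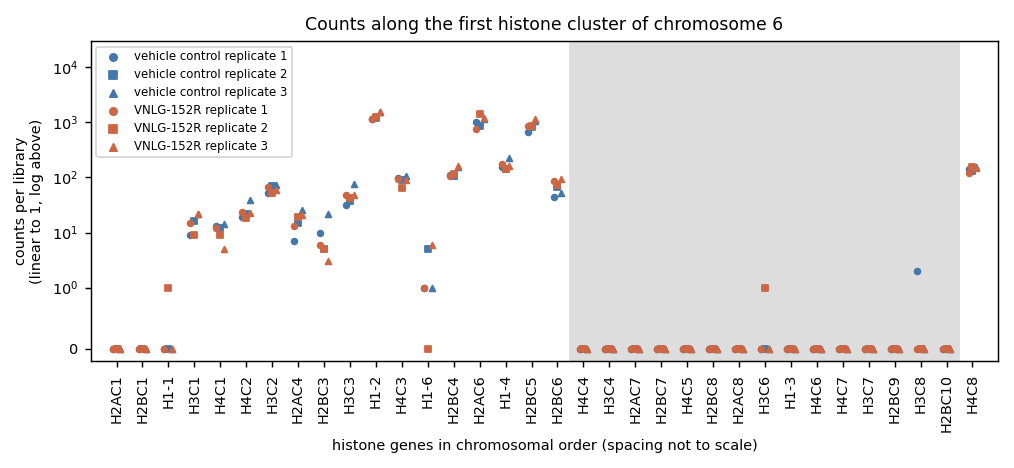
Counts of the 34 histone genes of the first chromosome 6 cluster in chromosomal order, with 1 point per library on an axis that is linear up to 1 and logarithmic above. The grey band marks H4C4 to H2BC10, where all but 2 members have no count in any library, between H2BC6 and H4C8, which have counts in all.

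A shorter stretch of the second chromosome 6 cluster, from 27865355 to 27873510, showed the same pattern. H2AC16, H1-5, H3C11 and H4C13 were listed at 0 there, between H2AC15 with 8 to 15 counts per library and H3C12 with 20 to 41. H2AC25 and H2BC26 on chromosome 1 and the testis histone genes H2AC1 and H2BC1 at the left end of chromosome 6's first cluster were also listed at 0, as was H3C15. A count of 0 allows up to 3 counts in a library, or 0.0365 to 0.0499 CPM at these depths, by counting error alone.

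Sequence copies moved with these zeros in few members. Of the 22 members at 0, 19 had at least 50% of their 100-base stretches to themselves among GENCODE 29 genes, and the median over the 22 was 100%. H3C4 and H2AC7 lie within another annotated gene of the same strand. Extra copies on alternate assembly sequences were not checked. Genes that every cell uses, such as CPSF1, RN7SK and RMRP, were also listed at 0 in every library, so a 0 in these tables is not read here as lack of transcription.

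The promoters of counted and uncounted neighbours are printed to show what lies in front of them. They are the 250 bases before the RefSeq start (GRCh38.p14), with capitals for the CCAAT box (CCAAT), the TATA box (TATAAA) and the octamer (ATTTGCAT) found on either strand, overlaps included. H2BC12 had the most counts of all members, H2BC9 is an H2B gene listed at 0, H4C8 is the counted neighbour to the right of the empty stretch, and H4C4 is the first gene inside it.
H2BC12, chr6:27146859-27147108, minus strand: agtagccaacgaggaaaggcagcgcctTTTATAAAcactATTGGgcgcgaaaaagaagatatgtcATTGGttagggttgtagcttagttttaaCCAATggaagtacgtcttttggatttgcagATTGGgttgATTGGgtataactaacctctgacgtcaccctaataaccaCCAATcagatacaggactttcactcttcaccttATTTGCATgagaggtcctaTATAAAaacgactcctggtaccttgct
H2BC9, chr6:26251364-26251613, plus strand: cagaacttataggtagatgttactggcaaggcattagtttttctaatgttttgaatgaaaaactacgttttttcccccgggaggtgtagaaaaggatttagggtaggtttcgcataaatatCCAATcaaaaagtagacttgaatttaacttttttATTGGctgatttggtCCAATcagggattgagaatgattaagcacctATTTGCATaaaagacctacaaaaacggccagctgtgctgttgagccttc
H4C8, chr6:26285535-26285784, minus strand: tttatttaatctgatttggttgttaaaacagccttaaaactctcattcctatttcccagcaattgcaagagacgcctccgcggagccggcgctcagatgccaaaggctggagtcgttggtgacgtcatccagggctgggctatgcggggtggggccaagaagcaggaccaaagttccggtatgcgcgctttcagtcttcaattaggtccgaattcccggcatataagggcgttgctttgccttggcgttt
H4C4, chr6:26189113-26189362, minus strand: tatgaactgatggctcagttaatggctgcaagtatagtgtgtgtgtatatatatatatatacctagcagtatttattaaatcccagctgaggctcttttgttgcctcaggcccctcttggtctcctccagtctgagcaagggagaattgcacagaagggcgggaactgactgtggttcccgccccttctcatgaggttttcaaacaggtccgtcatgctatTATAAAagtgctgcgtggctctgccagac
H2BC12 held the octamer once, CCAAT 6 times and TATAAA 3 times. H2BC9 held the octamer once, CCAAT 3 times and TATAAA 0 times. The uncounted H2B gene thus carried the octamer and CCAAT but not TATAAA. In H4C8 none of the motifs was found and in H4C4 only TATAAA. The H2BC12 window lies between H2BC12 and H2AC12, which point away from each other.

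Promoter windows were matched for 64 of the 69 members, 68 windows in all, and H2AC12, H3C11, H3C12, H4C1 and H4C3 were not matched. CCAAT was in 85.3% of the windows, against 32% of 35116 windows of all genes. TATAAA was in 66.2% against 10.7% and ATTTGCAT in 39.7% against 1.63%. The octamer was in 68.8% of H2A and 75% of H2B windows but in 7.69% of H3 windows and none of the 6 H1 or 13 H4 windows. Windows were counted per gene, and several H2A and H2B windows cover the same bases between divergent genes, such as H2AC20 and H2BC21. The 1 H3 window with the octamer, a window of H3C4, is the same stretch as the H2AC7 window. CCAAT was in all H1, H2A, H2B and H3 windows and in 23.1% of H4 windows. Of the members at 0, 21 were matched, with 22 windows, which held CCAAT in 86.4% and the octamer in 45.5%. Windows of tested members held them in 83.3% and 43.3%. TATAAA was in 50% of the windows of members at 0 and in 80% of the 30 windows of tested members.

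By cluster, the first chromosome 6 cluster of 34 members gave 47.5% of member counts and 13 negative and 1 positive estimate, with a median of -0.29. The second, of 21 members, gave 49.1% and 13 negative and 0 positive estimates, with a median of -0.41. The cluster of 11 members at 149782689 to 149887916 on chromosome 1 gave 2.97% of counts and 2 negative and 2 positive estimates. Near copies and overlapping genes may limit the smaller counts, since 15 members had under 50% of their 100-base stretches to themselves, with both strands searched. Among them are the copies H4C11 and H4C12, H2AC18 and H2AC19, and H3C14 and H3C15. H2AC7, H3C4, H2AC17 and H2AC15 instead overlap another annotated gene at the same place, H2AC15 on the opposite strand.

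Most of the factors that make and degrade histone mRNA did not pass the test. Of 27 tested genes of this list, 3 were called higher and 0 lower, against 3.76% and 1.43% of all tested genes. The median was -0.09. SLBP was at 117, 92.4 and 91.9 CPM in controls and 76.2, 77.6 and 84.5 CPM with VNLG-152R, all below the controls, at -0.34 (SE 0.1, adjusted p = 0.0797 in edgeR). DESeq2 called SLBP lower. LSM10 and ZNF473, parts of the U7 machinery, were at -0.24 and -0.20 and did not pass (adjusted p = 0.116 and 0.166 in edgeR), though treated and control libraries did not overlap. LSM11, the partner of LSM10 in the U7 ring, was at 0.02 and the endonuclease CPSF3 at -0.09.

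NPAT, the coactivator of histone transcription, was at 0.14, CASP8AP2 (FLASH), which joins histone transcription and processing, at 0.07, HINFP, which binds H4 promoters, at 0.01, and ERI1, an exonuclease that trims the hairpin, at 0.01, with adjusted p values of 0.345, 0.649, 0.963 and 0.966 in edgeR. The 3 genes that rose were XRN1, a 5′ to 3′ exonuclease (0.43, adjusted p = 0.0153), POU2F1, which binds the octamer (0.35, adjusted p = 0.0343), and TUT7, a uridyl transferase that tags histone mRNA for decay (0.32, adjusted p = 0.0423). None of the 3 was called after the correction for transcript length or without control replicate 1 or 3. Leaving out control replicate 2 or either of VNLG-152R replicates 2 and 3 left 1 called.

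S-phase genes had estimates on the same side of 0 as most histone genes. All 35 had negative estimates, against 50.4% of all tested genes, with a median of -0.26. Of the 35, 7 were called lower and 0 higher, against 1.43% and 3.76% of all tested genes. The list was chosen with earlier results of these data known. RRM2, a subunit of ribonucleotide reductase, was at 245, 214 and 221 CPM in controls and 174, 170 and 182 CPM with VNLG-152R (-0.37, adjusted p = 0.0272 in edgeR). GINS2 and GINS3, parts of the replicative helicase, were at -0.44 and -0.39 (adjusted p = 0.0333 and 0.0374 in edgeR). CCNE2, MCM10, TK1 and TYMS were the other 4. The list summed to 4250, 3928 and 4051 CPM under vehicle and 3533, 3255 and 3500 CPM under VNLG-152R, a log2 ratio of -0.25 beside -0.21 for the histone genes. SLBP belongs to this list as well. The count of 7 was 18 with DESeq2, 4 after the correction for transcript length, and 0 when any 1 of control replicates 1 and 3 and VNLG-152R replicate 3 was dropped. Dropping control replicate 2 gave 3, and dropping VNLG-152R replicate 2 gave 1. Calls over all genes moved as well, with 245 lower in the main fit, 542 with DESeq2 and 186 after the length correction. Without control replicates 1, 2 and 3 they were 104, 141 and 44. Without VNLG-152R replicates 2 and 3 they were 142 and 71.

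Replication-independent histone genes, most of which make polyadenylated mRNA, differed among themselves. Of 11 tested, 1 was called lower and 0 higher, against 1.43% and 3.76% of all tested genes. The 1 called was H2AX, the H2A variant phosphorylated at DNA breaks, whose mRNA can end in a hairpin or in a poly(A) tail. It was at 199, 172 and 198 CPM in controls and 157, 119 and 141 CPM with VNLG-152R (-0.45, adjusted p = 0.0342 in edgeR). That call was lost without any 1 of control replicates 1 and 3 and VNLG-152R replicates 2 and 3, and after the length correction. The list median was -0.14.

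Histone chaperones and assembly factors had a median of -0.13 over 23 tested genes. UBN2, a subunit of the HIRA complex that places H3.3 outside S phase, was called higher at 0.61, from 9.78, 11.1 and 11.2 CPM in controls to 15.6, 18 and 15.4 CPM with VNLG-152R (adjusted p = 0.00528 in edgeR). It was the 1 gene called higher, and 0 were called lower, against 3.76% and 1.43% of all tested genes. The number called higher was 2 without control replicate 1, and 0 with the replicate block and the length correction together. CHAF1A and CHAF1B, which deposit histones behind the replication fork, were at -0.22 and -0.25 (adjusted p = 0.164 and 0.108 in edgeR).

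Other RNAs without a poly(A) tail were set beside the histone genes. How far they measure what the selection let through was not tested. Of 23 such RNAs found, 9 were listed at 0 in every library, and 8 were tested and 0 called by edgeR. At an unadjusted p under 0.05, 2 were higher and 0 lower, against 12.8% and 9.76% of all tested genes. Without VNLG-152R replicate 1, 1 was called higher and 1 lower. Their summed CPM was 24.2, 23.56 and 19.3 in controls and 27.64, 43.4 and 24.71 with VNLG-152R, so all treated libraries lay above all controls. RN7SL1, the RNA of the signal recognition particle, made up most of it, at 18.9, 19.3 and 13.4 CPM in controls and 21.9, 40.2 and 21.4 CPM with VNLG-152R (0.70, SE 0.22, adjusted p = 0.0822 in edgeR). Without RN7SL1 the sum was 5.29, 4.26 and 5.95 CPM in controls and 5.69, 3.19 and 3.31 CPM with VNLG-152R, which overlap. SNORD3A, a small nucleolar RNA, was at -0.67 (SE 0.34) and RNU5A-1, a spliceosomal RNA, at -0.73 (SE 0.38), with adjusted p values of 0.261 and 0.287 in edgeR. The library with the highest sum, VNLG-152R replicate 2, had the lowest histone sum. It also had the largest share of reads in no annotated gene, 5.05% against 2.63% to 3.52% in the others. The part of these differences in the histone values was not tested, and without VNLG-152R replicate 2 the log2 ratio of summed histone CPM was -0.17 and the median of the tested members -0.24.

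**Figure D5:**
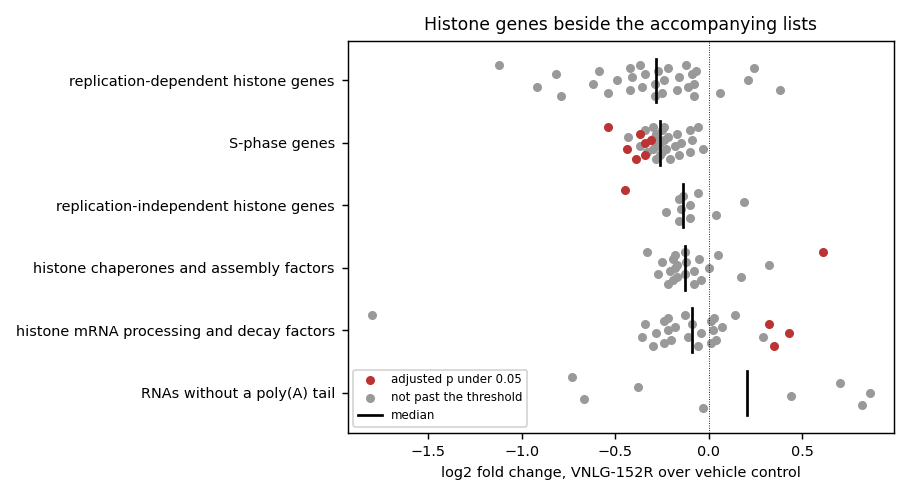
Log2 fold change of every tested gene in the histone set and in the 5 accompanying lists (red, adjusted p under 0.05; grey, not past the threshold; black line, median). The histone genes and the S-phase genes have medians of -0.28 and -0.26, and the RNAs without a poly(A) tail a median of 0.21.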

How the data were processed

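The authors deposited raw counts per Ensembl gene, 1 table per sample, from poly(A)-enriched, strand-specific libraries read from both ends. The processing notes name HISAT, HTSeq, DESeq and the build GRCh38, while versions, annotation release and strand setting are not stated in any source used here. Read classes outside genes were left out of totals: 2.63% to 5.05% in no gene, 4.81% to 5.16% ambiguous between genes and 7.81% to 8.12% not unique.

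The histone genes and the accompanying lists were chosen with earlier results of these data known. Symbols came from a gene record table, which matched 61399 identifiers. Positions, lengths and stem-loops came from GENCODE 29 (GRCh38), where 65 members were found by identifier and 4 by an older symbol. Promoters came from RefSeq (GRCh38.p14).

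Groups came from the sample labels. Counts were compared in R 4.3.3 with edgeR 4.0.16 (TMM, filterByExpr, quasi-likelihood test, Benjamini-Hochberg over all tested genes), tested on simulated data. With 3 against 3 samples, no exact permutation test of single values was made. Intervals and floors cover counting error only. Named genes were the 3 members with the highest mean CPM in each class, the 3 most positive and 3 most negative estimates, the 5 highest per kilobase, members at 0, 9 core processing and transcription factors and, from each list, up to 3 genes per direction with the smallest p. Others were named for a count of 5 or fewer, as copies or neighbours of a named gene, or as examples after their values were seen. Some genes that this rule or the marker list would name are not reported here. The fit was repeated with DESeq2 1.42.0, limma-voom (limma 3.58.1), RLE size factors, unscaled library sizes, every gene kept, only genes averaging 1 CPM or more, the replicate number as a block, a lowess correction for transcript length (span 0.3), thinning to the shallowest library (seed 1), and each library left out.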

Additional observations from a re-analysis of the deposited data

How the results depend on the processing

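No histone gene was called higher under any alternative, and 0 were called lower except without an expression filter, where 1 was (H2AC13). The median of the tested members was negative under each alternative run, from -0.43 to -0.15. The log2 ratio of the summed CPM, recomputed with other scalings, thinning, the length correction, subsets of members and each library left out, was negative in each, from -0.28 to -0.12. The log2 ratio was -0.20 without H2BC12, -0.26 without members that have an annotated intron or extended transcript, and -0.15 after the length correction. Members with at least 1 count in every library numbered 38, and those with at least 10 counts 24.

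Calls in the accompanying lists were less steady. Without an expression filter, 2 chaperones were higher, 3 processing factors lower, 11 S-phase genes lower, and 1 RNA without a poly(A) tail higher and 1 lower. With DESeq2, 1 chaperone, 3 processing factors and 18 S-phase genes were lower. With the length correction, 0 processing factors were higher, 0 replication-independent histone genes lower and 4 S-phase genes lower. With 1 library left out, S-phase genes called lower ranged from 0 to 7, processing factors called higher from 0 to 3 and lower from 0 to 1, chaperones called higher from 1 to 2, replication-independent histone genes called lower from 0 to 1, and RNAs without a poly(A) tail from 0 to 1 in either direction. Calls over all genes moved too, from 642 higher and 245 lower in the main fit. They were 1056 and 483 without an expression filter, 917 and 542 with DESeq2, and 419 and 186 with the length correction. With 1 library left out they ranged from 220 to 601 higher and from 44 to 347 lower. The cause was not tested.

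Replicate numbers did not pair the samples: deviations of same-numbered samples correlated at -0.19, -0.17 and -0.11, and no sample correlated best with its own number. With the replicate block, 0 histone genes were called, their median was -0.29, and calls over all genes went from 642 higher and 245 lower to 310 and 87. In the lists the block left 0 processing factors higher and 1 lower, 0 S-phase genes lower, and 1 RNA without a poly(A) tail higher. The block with the length correction left 0 chaperones and 0 processing factors higher, 0 replication-independent histone genes and 0 S-phase genes lower, and 1 RNA without a poly(A) tail higher.

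Of the 32 tested members, 10 changed sign in at least 1 setting. Estimates that changed sign without being called are given here for H2AC14, H2BC18 and the genes that the naming rule covers. With the length correction ERI1 was at -0.01, LSM11 at -0.01 and HINFP at -0.08. With that correction and the block they were at -0.02, -0.01 and -0.08, and after thinning ERI1 was at -0.02. With 1 library left out, H2AC6 ranged from -0.32 to 0.04, H2BC5 from -0.20 to 0.05, H3C3 from -0.54 to 0.08, H2AC14 from -0.23 to 0.03, H2BC18 from -0.33 to 0.45, ERI1 from -0.13 to 0.11, LSM11 from -0.03 to 0.07, HINFP from -0.07 to 0.09 and H1-10 from -0.02 to 0.10. For the 43 members with under 100 counts in all, counting error limits what can be seen.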
